A study of Drosophila melanogaster with 6 samples.

Results

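TRP channels are the painless gene (pain) and its relatives among the transient receptor potential cation channels of the fly. The set was defined by name as 10 genes (pain, TrpA1, pyx, trp, trpl, Trpgamma, nan, iav, Trpm and Trpml), and it was chosen because pain was higher after ROW depletion in these same arrays. A probe set, the group of short oligonucleotides on the array that reads 1 transcript, was taken where the array annotation gave that symbol alone. This found 12 probe sets of 9 genes, out of 11982 genes named in the same way among 18769 tested probe sets. Trpm had 4 probe sets and each of the other 8 genes had 1. Trpml shared its probe set with CG42638, so it has no value of its own here.

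The series holds 6 Affymetrix Drosophila Genome 2.0 arrays, hybridized with amplified total RNA of S2 cells, an embryonic cell line that resembles fly blood cells. In the 3 ROW RNAi arrays the cells had taken up double-stranded RNA against ROW from the medium for 96 h, and the 3 control arrays were made from cells labelled wild type. ROW is a zinc finger protein found on chromatin together with HP1c. No double-stranded RNA is named for the controls, so loss of ROW and exposure to double-stranded RNA cannot be told apart. Whether each array had a culture of its own is not stated, so errors and p-values cover the spread among the 6 arrays, and that spread may be only technical.

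TRP channels are cation channels that open on heat, irritant chemicals, mechanical force or lipid signals and let calcium or sodium into the cell. In the fly they are best known from sensory neurons. The TRPA genes serve heat and pain sensing, the TRPC genes carry the light response of photoreceptors, and the TRPV genes serve hearing. Trpm and Trpml act outside sensory cells too, in metal ion balance and in the lysosome.

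Values are log2 RMA values, a scale on which a difference of 1 is a doubling. RMA values of different probe sets depend on their own oligonucleotides, so levels were compared only within a probe set. Array medians lay between 4.88 and 5.04, and array pairs correlated over probe sets with r between 0.987 and 0.998. The 95th percentile of 17 tag control probe sets, 3.39, served as the background level, and 70.3% of all tested probe sets lay above it on all 6 arrays. On the first principal component, which held 66.9% of the variance between arrays, ROW RNAi replicates 1 and 3 scored 42.7 and 20.8 and stood apart from ROW RNAi replicate 2 at −19.5 and from the controls at −3.69, −26.5 and −13.7. The row transcript itself fell on each of its 3 probe sets, with log2 fold changes between −2.66 and −1.58 (limma adjusted p between 0.0017 and 0.0023). All 17 hemocyte markers lay above background on all 6 arrays, as did 8 of 12 neuron markers and 2 of 4 photoreceptor markers.

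Within the TRPA group, pain and pyx were above 0 and TrpA1 below, and neither pyx nor TrpA1 passed the threshold. pain encodes a channel needed by larvae to respond to noxious heat and harsh touch. It read 8.52, 8.54 and 8.60 in the ROW RNAi arrays, against 7.71, 7.73 and 7.46 in the control arrays. Every ROW RNAi array lay above every control array, with a gap of 0.79 between the nearest arrays of the groups. The means were 8.55 ± 0.04 in ROW RNAi and 7.63 ± 0.15 in control (SD, n = 3 arrays each). The log2 fold change was 0.92 (SE 0.09), which is 1.89-fold. This is the value that chose the genes, so it is given as a description, with no p, and supports nothing further. The highest and lowest ROW RNAi arrays differed by 0.08 and the highest and lowest control arrays by 0.27, control replicate 3 being the lowest. ROW RNAi replicate 2, which stood with the controls on the first component, read 8.54 for pain, between replicates 1 and 3. The part of the component in the value of pain was not tested. By size of log2 fold change pain was number 174 from the top among all 18769 probe sets.

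pyx, which encodes the heat-activated channel pyrexia, read 6.42, 6.92 and 6.65 in the ROW RNAi arrays, against 5.98, 6.35 and 6.03 in the control arrays. The groups did not overlap, but the gap between ROW RNAi replicate 1 and control replicate 2 was 0.07, less than the spread within either group. Its log2 fold change was 0.54 (SE 0.16, 95% interval 0.15 to 0.94), and it did not pass the threshold. In both groups replicate 2 was the highest array. TrpA1, which encodes a sensor of warmth and of irritant chemicals, read 3.80, 4.10 and 3.69 in ROW RNAi against 4.19, 4.35 and 3.94 in control. Its groups overlapped, and the log2 fold change was −0.29 (SE 0.15, 95% interval −0.66 to 0.07).

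**Figure D1:**
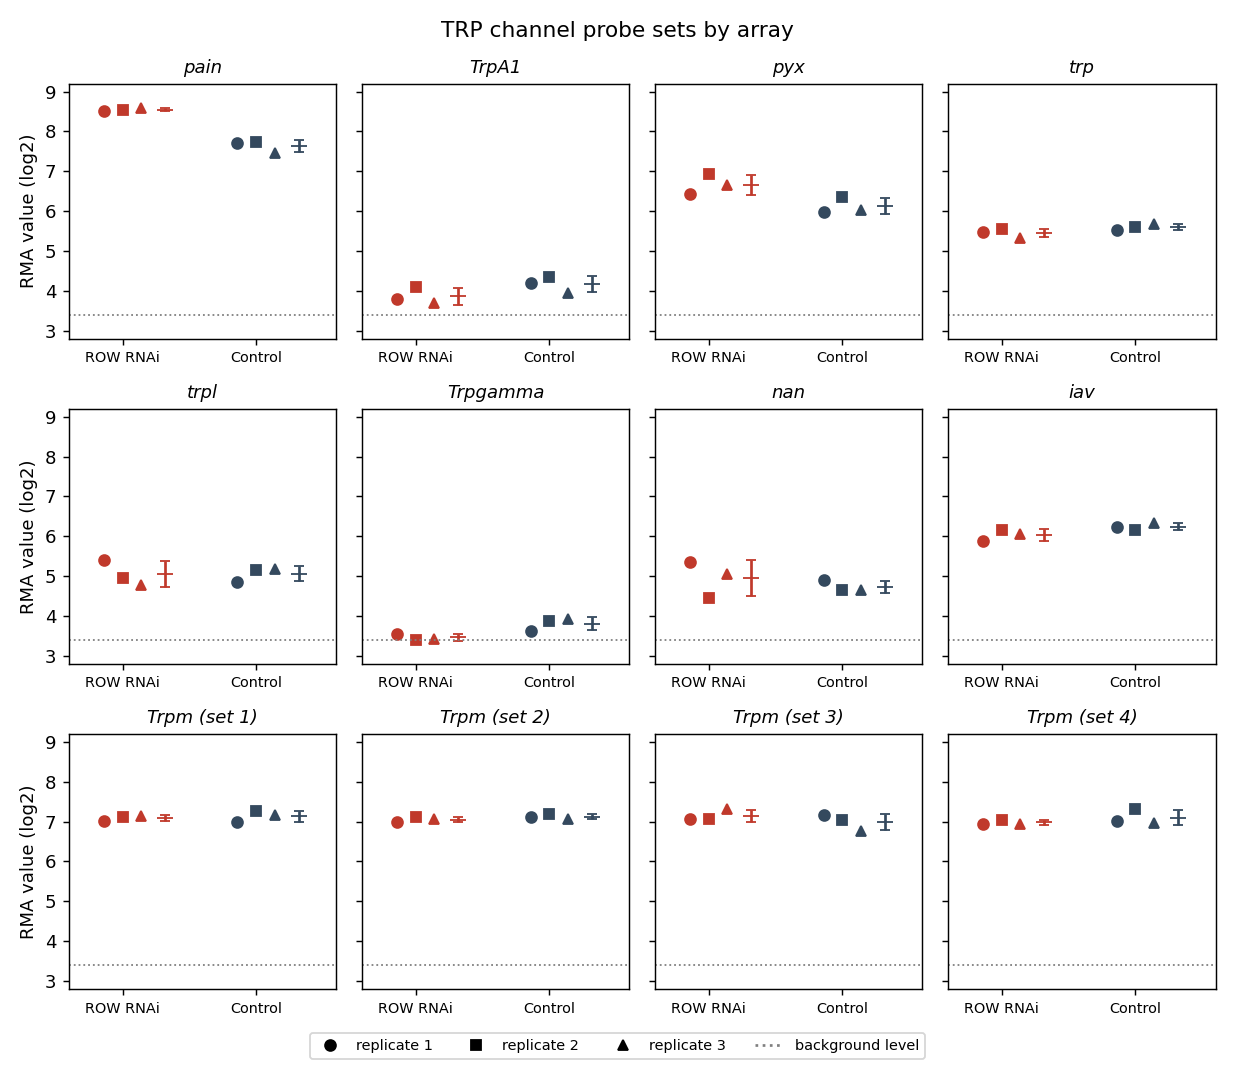
RMA values (log2, y axis) of the 12 TRP channel probe sets on each array, ROW RNAi left and control right in each panel; markers are replicates, the bars give mean and SD (n = 3 arrays each), the dotted line is the background level of 3.39, and the Trpm sets are numbered from the brightest. pain separates by 0.79 between the nearest arrays, pyx and Trpgamma by 0.07, and the groups overlap in the other panels.

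None of the TRPC genes passed the threshold. trp, the main light-activated channel of photoreceptors, read 5.48, 5.54 and 5.33 in ROW RNAi arrays, against 5.52, 5.61 and 5.69 in control arrays. The groups overlapped, and the log2 fold change was −0.15 (SE 0.08, 95% interval −0.35 to 0.04). trpl, the second light-activated channel, read 5.41, 4.96 and 4.78 in ROW RNAi against 4.86, 5.16 and 5.18 in control. The ROW RNAi arrays of trpl spanned the range of the controls, with replicate 1 highest. Its log2 fold change of −0.01 (SE 0.18, 95% interval −0.46 to 0.44) turned above 0 with cyclic loess scaling (0.058), and the interval is wide enough to hold changes in either direction.

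Trpgamma, a channel subunit that can assemble with trpl, lay close to background. It read 3.55, 3.40 and 3.43 in ROW RNAi arrays, against 3.62, 3.87 and 3.91 in control arrays. ROW RNAi replicates 2 and 3 were barely above the background level of 3.39. The groups did not overlap, with a gap of 0.07 between ROW RNAi replicate 1 and control replicate 1. The log2 fold change was −0.34 (SE 0.10, 95% interval −0.58 to −0.10) and did not pass the threshold. A probe set this close to background can understate a difference.

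The TRPV genes nan and iav encode subunits of the channel that hearing organs need, and each needs the other there. nan read 5.36, 4.45 and 5.05 in ROW RNAi arrays, against 4.89, 4.64 and 4.64 in control arrays. Its ROW RNAi arrays took the order of the first component, replicate 1 highest and replicate 2 lowest, below all 3 controls. The log2 fold change of nan was 0.23 (SE 0.24, 95% interval −0.36 to 0.81), 0.48 without ROW RNAi replicate 2 and 0.02 without ROW RNAi replicate 1. The part of the component in the value of nan was not tested. iav read 5.87, 6.16 and 6.07 in ROW RNAi against 6.24, 6.16 and 6.34 in control, and ROW RNAi replicate 2 and control replicate 2 met at nearly the same value. Its log2 fold change was −0.21 (SE 0.09, 95% interval −0.44 to 0.02).

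Trpm, a channel for divalent metal ions, was read by 4 probe sets, none of which passed the threshold. The brightest read 7.01, 7.12 and 7.14 in ROW RNAi arrays, against 6.98, 7.25 and 7.17 in control arrays. The groups overlapped on all 4 sets, whose log2 fold changes were −0.04, −0.07, 0.15 and −0.12 from the brightest to the dimmest. Their standard errors were 0.09, 0.06, 0.13 and 0.10, and their 95% intervals together ran from −0.38 to 0.47. The third set thus pointed the other way from the rest, by about its own standard error, and the brightest turned to 0.019 with cyclic loess scaling.

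The probe set that Trpml, the lysosomal channel gene, shared with CG42638 read 4.55, 3.39 and 4.29 in ROW RNAi arrays, against 3.80, 3.61 and 3.48 in control arrays. ROW RNAi replicate 2 was below all controls and fell below background, while replicates 1 and 3 were above all controls. The log2 fold change was 0.44 (SE 0.31, 95% interval −0.31 to 1.20), and the 2 genes cannot be told apart on it.

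**Figure D2:**
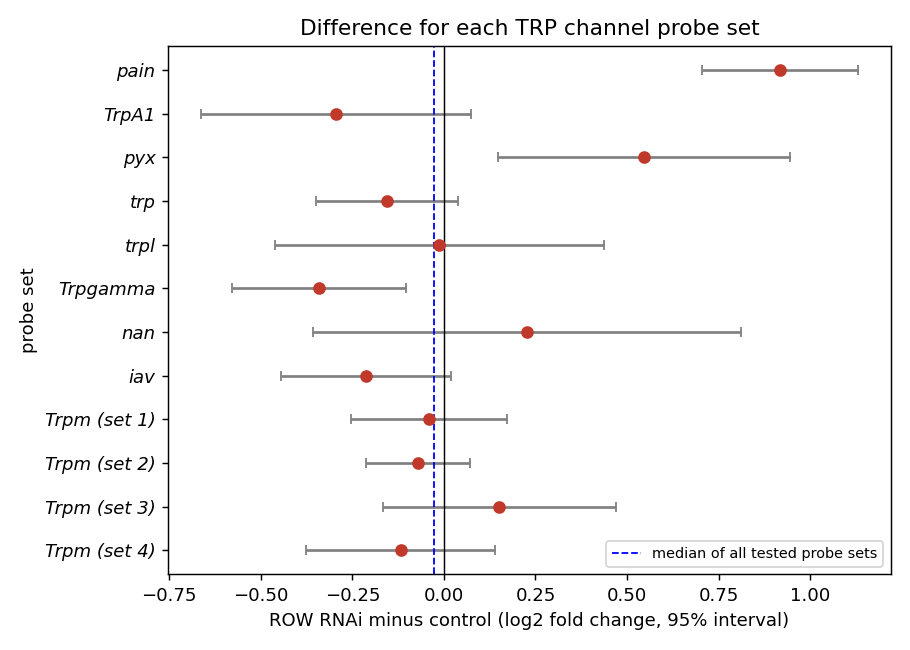
Log2 fold change, ROW RNAi minus control (x axis), of each TRP channel probe set (y axis), with 95% intervals from limma that are not adjusted for the number of probe sets; the dashed line is the median of all tested probe sets, −0.03. pain lies at 0.92, pyx at 0.54 and Trpgamma at −0.34, and the intervals of the other 9 probe sets include 0.

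Counted over the set, 1 of 12 probe sets, that of pain, passed the threshold of limma (adjusted p under 0.05 over all probe sets), against 1.16% of all tested probe sets. It passed upward and 0 passed downward, against 0.405% and 0.757% of all tested probe sets, and 3 of the 12 had an unadjusted p under 0.05, against 13.8%. Since pain chose the set in this comparison, nothing is read from these counts. The count of 1 became 0 without ROW RNAi replicate 1 or 3, without control replicate 1 or 2, with an unmoderated test and with a block for the replicate number. The groups did not overlap on 3 of the 12, against 21.4% of all tested probe sets. They were 2 higher, pain and pyx, against 7% of all tested probe sets, and 1 lower, Trpgamma, against 14.4%. With 1 probe set kept for each of the 9 genes, the brightest, 3 were above 0 and 6 below, and the median log2 fold change was −0.04, against −0.03 over all 11982 genes.

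Recomputed from the same arrays under 15 alternatives, the log2 fold change of pain lay between 0.83 and 0.97. These values rest on the arrays that chose the set and are not independent of it. pyx, nan, Trpgamma, TrpA1, trp, trpl, iav and Trpm passed the threshold under none of the alternatives in which they were tested.

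**Figure D3:**
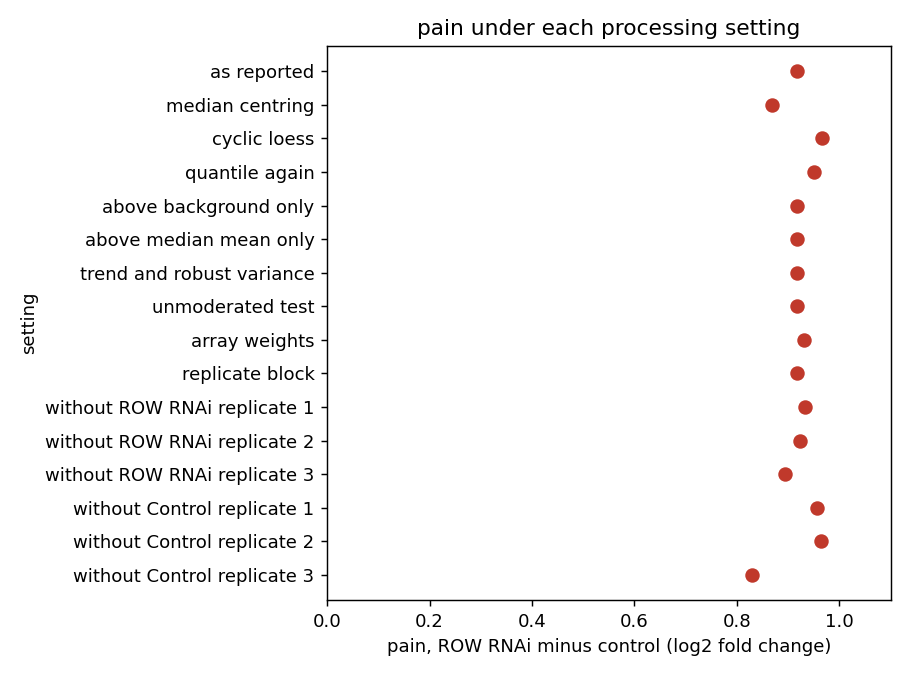
Log2 fold change of pain, ROW RNAi minus control (x axis, from 0), under each processing setting (y axis). Values run from 0.83 without control replicate 3 to 0.97 with cyclic loess, all computed from the arrays that chose the set.

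Of 6 other listed channels of the TRP superfamily, 4 were measured (nompC, Pkd2, wtrw and brv2), and 2 of them lay above background on all arrays. In limma 0 passed, against 1.56% of all genes (0.542% higher and 1.02% lower), and 0 had an unadjusted p under 0.05, against 15.1% of all genes. With 4 genes, little can be read from either count. nompC, a force-gated channel of touch and hearing cells, read 5.40, 4.36 and 4.75 in ROW RNAi against 4.51, 3.94 and 4.79 in control, with a log2 fold change of 0.42 (SE 0.33). wtrw, a TRPA channel of humidity sensing, had a log2 fold change of −0.15 (SE 0.13), but was above background on only 1 ROW RNAi array and 2 control arrays. brv2 lay below background on all 6 arrays.

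Genes that act with these channels, other mechanosensory and nociceptive genes and other cation channels were measured as 6 further lists with 101 genes. In limma 0 of them passed the threshold, and 12 (11.9%) had an unadjusted p under 0.05, 5 higher and 7 lower, against 15.1% of all genes. Of 15 phototransduction partners of trp and trpl, 8 were above 0 and 7 below, with a median log2 fold change of 0.01. Over all genes 39.8% were above 0 and the median was −0.03, which serves for the lists below too. In photoreceptors a Gq protein and phospholipase C act upstream of the channels. Galphaq, the alpha subunit of that G protein, had a log2 fold change of 0.10, and inaD, the scaffold that holds trp, was below background in both groups, with means of 2.73 in ROW RNAi and 2.79 in control. The highest value was that of rdgB, a phosphatidylinositol transfer protein, at 6.81, 5.52 and 6.96 in ROW RNAi arrays against 5.89, 5.58 and 5.90 in control arrays. ROW RNAi replicates 1 and 3 were high and replicate 2 was not, and replicate 2 was also the lowest of the controls. The log2 fold change of rdgB was 0.64 (SE 0.39). Without ROW RNAi replicate 2 it was 1.09 and past the threshold. Among genes with a mean above background, the next highest was rdgA, a diacylglycerol kinase, at 0.15 (SE 0.13), and the lowest were laza, a lipid phosphatase, at −0.26 (SE 0.21) and inaE, a lipase, at −0.21 (SE 0.12).

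Of 14 phospholipase C and phosphoinositide enzymes, 10 were above 0 and the median was 0.04, against 39.8% above 0 and a median of −0.03 over all genes. Plc21C, a phospholipase C, had a log2 fold change of 0.29 (SE 0.24) and Pis, which makes phosphatidylinositol, 0.14 (SE 0.05). The kinases fwd and Pi3K59F had −0.14 (SE 0.07) and −0.12 (SE 0.05).

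S2 cells take up calcium through Stim and Orai when their internal stores are empty. Of 16 measured genes of calcium entry, stores and extrusion, 7 were above 0 and 9 below, with a median of −0.03. Stim, the sensor of the calcium store, had means of 11.8 in both ROW RNAi and control, and Orai, the channel it opens, had 10.4 in ROW RNAi and 10.1 in control with a log2 fold change of 0.27 (SE 0.07). Orai did not pass the threshold (limma adjusted p = 0.20), but did with trend and robust variance. MCU, the mitochondrial calcium uniporter, read 4.19, 4.72 and 4.22 in ROW RNAi against 5.07, 5.09 and 5.11 in control. Its groups did not overlap, and the difference of −0.71 on the log2 scale (SE 0.15, limma adjusted p = 0.13) passed with array weights and without ROW RNAi replicate 2. CanB, SPoCk and RyR had log2 fold changes of 0.49, 0.32 and −0.25 (SE 0.31, 0.20 and 0.10). RyR lay below background on all ROW RNAi arrays, and CanB was above it on 2 ROW RNAi arrays and 1 control array.

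Among 14 other mechanosensory and nociceptive genes, 12 were below 0 and the median was −0.12, where 60.2% of all genes were below 0. Only 9 of the 14 lay above background on all arrays and 3 did on none, so some of these signs are those of background-level values. The 2 genes above 0 were Tmem63, above background on all arrays, and ppk, above it on 2 ROW RNAi arrays and 0 control arrays. Genes below 0 thus include both bright and dim ones. stj, a calcium channel subunit that takes part in heat pain, had −0.61 (SE 0.17, limma adjusted p = 0.22), and tilB, a gene of cilium motility, −0.54 (SE 0.14, adjusted p = 0.18). The groups did not overlap for either. Tmem63 and subdued, both well above background, had 0.12 (SE 0.08) and −0.0044 (SE 0.07). Among 27 other cation channels, 20 were below 0 and the median was −0.11, with 18 above background on all arrays and 2 on none. Ca-beta and Ca-alpha1D, subunits of voltage-gated calcium channels, had log2 fold changes of 1.21 (SE 0.79) and 1.13 (SE 0.96) with overlapping groups. Ca-beta read 5.79, 2.78 and 4.71 in ROW RNAi against 3.66, 2.54 and 3.46 in control. For both genes replicate 2 was the lowest array in each group, and for Ca-beta it lay below background in each. Irk3 and Task7, both potassium channel genes, had −0.37 (SE 0.20) and −0.35 (SE 0.09). Task7 lay below background on all ROW RNAi arrays.

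Of 15 lysosomal partners of Trpml, 5 were above 0 and 10 below, and the median was −0.01. Npc2a, a sterol-binding lysosomal protein, had 0.29 (SE 0.07, limma adjusted p = 0.19) and passed with trend and robust variance. Arl8, lt and Mitf had 0.04, −0.07 and −0.28 (SE 0.05, 0.06 and 0.13).

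**Figure D4:**
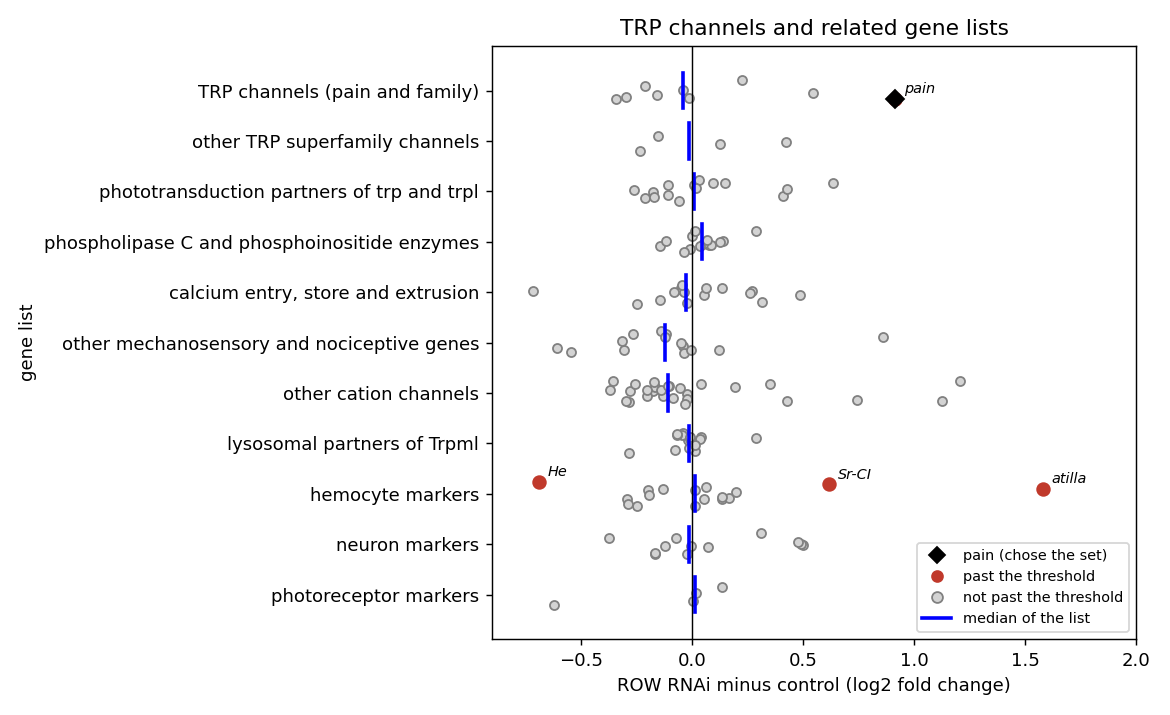
Log2 fold change, ROW RNAi minus control (x axis), of each measured gene on its brightest probe set, by gene list (y axis); the black diamond is pain, red points are past the threshold of limma, grey points are not, and the blue bar is the median of the list. pain lies at 0.92, 0 points are red in the 7 channel and pathway lists below its list, and the 3 red points of the hemocyte list are He, Sr-CI and atilla.

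Markers of neurons, of photoreceptors and of hemocytes, the fly blood cells that S2 cells resemble, were set beside the members. The mean level of the 12 neuron markers was 5.23, 4.89 and 4.95 in the ROW RNAi arrays and 5.03, 4.89 and 4.91 in the control arrays, and 0 markers passed in limma (4 had an unadjusted p under 0.05, against 15.1% of all genes). The marker fne had 0.49 (SE 0.36), Rdl 0.50 (SE 0.32), futsch −0.37 (SE 0.14) and nSyb −0.17 (SE 0.07), and Gad1 and onecut were below background on all arrays. The 4 measured photoreceptor markers had mean levels between 3.42 and 3.78 in ROW RNAi and between 3.60 and 3.85 in control, with gl at 0.01 (SE 0.10) and chp at −0.62 (SE 0.22). Among the 17 hemocyte markers 2 rose and 1 fell, against 1.56% of all genes past the threshold, and 9 had an unadjusted p under 0.05, against 15.1%. The calls were atilla at 1.58 (SE 0.13), Sr-CI at 0.62 (SE 0.07) and He at −0.69 (SE 0.06), and the median of the list was 0.02. In RNA of whole cultures, a change in the share of cells that express a gene and a change in RNA per cell cannot be told apart.

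pain lies on chromosome arm 2R, and genes on both sides of it were measured. Of the 5 nearest measured genes on either side, 3 were above 0, the median was −0.02, 0 rose and 1 fell (1.56% of all genes passed), and 4 had an unadjusted p under 0.05, 2 of them higher (15.1% of all genes). CG2811, the third measured gene on one side, fell to 8.93, 8.85 and 9.07 in ROW RNAi arrays, against 9.99, 10.1 and 9.88 in control arrays. The log2 difference was −1.04 (SE 0.09, adjusted p = 0.010 in limma), opposite in sign to pain. It was no longer past the threshold without ROW RNAi replicate 1, without any 1 of the control arrays or with the replicate number as a block. Ance-5 and CG15861, the outermost genes, did not overlap between groups and had 0.32 (SE 0.05, adjusted p = 0.074) and 0.25 (SE 0.05, adjusted p = 0.12). The genes that adjoin pain in this order, the ribosomal protein gene RpL41 and CG30427, had 0.12 (SE 0.11) and −0.07 (SE 0.14). CG30427 lay above background on 0 ROW RNAi arrays and 1 control array, so its value can show little. NaCP60E, a sodium channel gene, had −0.02 (SE 0.09), and CG3760 and Tina-1 both −0.02 (SE 0.04 and 0.05). Tpc2 and CG9083, both dim, had −0.40 (SE 0.15) and −0.14 (SE 0.09).

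**Figure D5:**
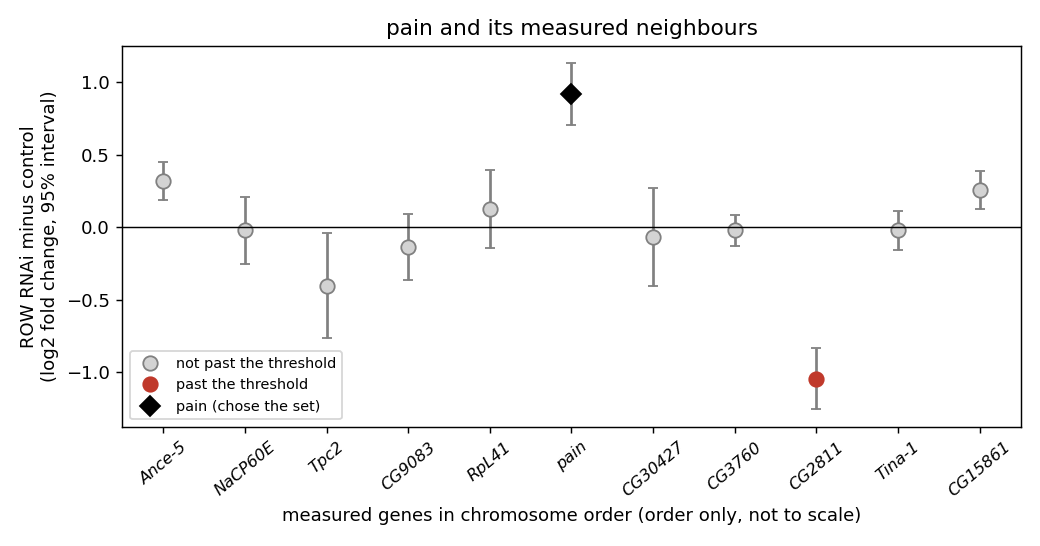
Log2 fold change, ROW RNAi minus control (y axis, 95% intervals), of pain and the 5 nearest measured genes on either side in chromosome order (x axis, order only); the black diamond is pain, the red point is past the threshold of limma and grey points are not. pain at 0.92 and CG2811 at −1.04 lie on opposite sides of 0, and RpL41 and CG30427 beside pain have intervals that include 0. CG30427 was above background on only 1 array, a control.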

How the data were processed

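The deposited values are log2 RMA values per probe set and array, made by the authors with RMA per the submitters' processing notes, with no version stated there. RMA corrects background, normalizes by quantiles and summarises probes, so a shift shared by most transcripts is not visible and folds can be compressed. Per the labels' protocols, 25 ng of total RNA was amplified isothermally and labelled with biotin. The number of arrays limits the precision.

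Of 18952 probe sets, 183 Affymetrix controls were left out. Symbols came from the platform annotation and were updated by gene ID against RefSeq's gene table (Release 6 plus ISO1 MT), which also gave the order of genes; no coordinates are printed. 13647 probe sets had 1 symbol (13544 matched), 402 several and 4720 none. No sequences were used.

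ROW RNAi was compared with control in limma 3.58.1 (lmFit, eBayes, two-sided) in R 4.3.3, with Benjamini-Hochberg adjustment over all tested probe sets and a threshold of 0.05. Tables and figures used Python 3.11.15, pandas 2.3.3 and matplotlib 3.10.9. On data simulated for this comparison (18769 probe sets) the fit recovered 46% of probe sets changed by 0.585 (log2), 74% at 1, 96% at 2 and 98% at 3. It also called 13 unchanged probe sets. The simulated noise was independent between probe sets, without the first component that the real arrays share, so these shares need not hold for them.

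The members and lists were chosen with earlier results of these data known. Named were all members, row, the 5 genes on either side of pain and the 5 genes most correlated with pain. In each list, genes past the threshold were named, or otherwise up to 2 highest and 2 lowest with a mean over the arrays above background. Stim, Orai, Galphaq, inaD, brv2, Gad1 and onecut, and the genes called under alternatives only, were named after their values were seen. Alternatives were other scalings, other variance models, filters on dim probe sets, a block for the replicate number, array weights, averaging the probe sets of a gene, and each array left out in turn.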

Additional observations from a re-analysis of the deposited data

How the results depend on the processing

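Results are the changed probe sets (218, with 76 higher and 142 lower), TRP channel genes past the threshold (1), listed genes past it (3, with 2 higher and 1 lower) and neighbours of pain past it (1). Median centring gave 107, 33 and 74 probe sets and 1 listed gene higher (atilla). Cyclic loess, a further quantile normalization, probe sets above background only, averaged probe sets per gene (each adding Glt) and array weights (adding MCU) gave 2 listed genes lower, and the background filter gave 2 neighbours, CG2811 and Ance-5. Probe sets above the median mean, with fewer tested, gave 575, 207 and 368, with 5 listed genes (3 lower, adding Glt and Pxn) and 3 neighbours, adding CG15861. Trend and robust variance gave 558, 222 and 336, with 8 listed genes (5 higher, 3 lower) and 3 neighbours. The unmoderated test gave 122, 43 and 79, with 0 channel genes (pain at 0.92, not past the threshold), and 0 listed genes higher and 2 lower.

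Leaving out 1 array gave 24 to 517 changed probe sets, 5 to 259 higher and 19 to 258 lower. Without ROW RNAi replicate 2 the count was 517, and without any of the others it was at most 64. It gave 0 to 1 channel genes, 0 to 5 listed genes (0 to 3 higher, 0 to 2 lower) and 0 to 1 neighbours, with pain between 0.83 and 0.96 and row between −1.62 and −1.54. trpl turned above 0 with cyclic loess (0.058) and without ROW RNAi replicate 2 or 3 or control replicate 2 or 3, its range without 1 array being −0.19 to 0.12. The brightest Trpm probe set turned with cyclic loess (0.019) and without control replicate 2, with a range of −0.12 to 0.019. What moved these counts and values was not tested.

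With a block for the replicate number, 0 probe sets passed in limma (0 higher, 0 lower, with 2924 at an unadjusted p under 0.05), nor any channel gene (0), listed gene (0 higher, 0 lower) or neighbour (0), with pain at 0.92 and row at −1.58, neither past the threshold. The deviations from the group means of arrays with the same number had correlations of 0.48, 0.55 and −0.04 over probe sets, and the labels do not say that a number marks a shared culture, so the numbers were not taken to pair the arrays.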

Other observations

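The genes whose pattern over the 6 arrays was most like that of pain were CG8349, CG4250, Ptp52F, CG9184 and CG9733, among 4057 probe sets with 1 symbol and a range over the arrays of at least 0.5. Ptp52F encodes a receptor tyrosine phosphatase. Their Pearson r with pain lay between 0.994 and 0.996, as a description over 6 arrays that fall into the same 2 groups, so that the difference between the groups makes up most of it. Ptp52F read 8.35, 8.28 and 8.34 in ROW RNAi arrays, against 7.75, 7.80 and 7.56 in control arrays, with control replicate 3 lowest as in pain. The log2 fold changes of the 5 genes lay between 0.59 and 0.62, smaller than the 0.92 of pain.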
